A study of Mus musculus with 6 samples.

Results

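Inflammasomes are protein platforms that form in the cytosol when a sensor meets a microbial or damage signal. The sensors recruit the adaptor ASC, the product of Pycard, which gathers caspase-1. Caspase-1 then cleaves the precursors of interleukin-1β and interleukin-18 and opens gasdermin D, whose fragments form pores in the plasma membrane and cause a lytic cell death called pyroptosis. Dendritic cells and macrophages carry this machinery as part of their innate defence.

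The 10 genes described here cover this route from sensor to pore. Nlrp3, Nlrp1b, Nlrc4, Naip2, Naip5 and Aim2 encode sensors or sensor partners, Pycard the adaptor, Casp1 and Casp4 inflammatory caspases, and Gsdmd the pore protein. They were chosen by gene name, and each had 1 row in a table of 54532 genes. All 10 passed the filter on low counts that left 14174 genes for testing.

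RNA-seq was performed on total RNA of mouse dendritic cells in culture, with 3 libraries labelled Control and 3 libraries of cells given DB2313. DB2313 is a small molecule that inhibits PU.1, the transcription factor encoded by Spi1. Cells of both groups were kept in RPMI 1640 medium with fetal bovine serum and antibiotics. The labels gave no strain, genotype, age, dose or time of treatment, and did not say whether the libraries came from separate cultures. The comparison asks which transcripts differ in level between cells given DB2313 and Control cells.

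Total counts were 16146743 to 16299657 per Control library and 16310491 to 19764677 per DB2313 library. The DB2313 libraries differed more from each other than the Control libraries did, with a chi-square per degree of freedom of 7.43 to 17.7 against 4.77 to 5.28, the largest value being that of DB2313 replicates 1 and 3. Of the 8 dendritic cell markers examined, Cd74, H2-Ab1, Ccr7, Itgax, Flt3, Zbtb46 and Ciita were present, whereas Cd209a stayed at 4 counts or fewer in every library. Markers of other cell types were also present. Over the 10 neutrophil markers the summed level was 3360 to 3750 counts per 1000000 counts of the library (CPM) in Control and 3530 to 4520 in DB2313, and over the 8 mast cell and basophil markers it was 2420 to 2620 and 2450 to 2950. The 8 T cell markers summed to 153 to 178 and 151 to 220 CPM. The 4 B cell markers summed to at most 1.02 CPM, with Ms4a1 at 3 counts or fewer in every library, and the 4 fibroblast markers to at most 1.64 CPM.

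Of the 10 genes, Nlrp3 was lower in DB2313 and no gene was higher at an adjusted p under 0.05 in edgeR's quasi-likelihood test with Benjamini-Hochberg adjustment over all genes tested. The remaining machinery, from the other sensors to Pycard, Casp1 and Gsdmd, did not pass the test. One call in 10 genes stands beside 10.6% of all genes tested that were called in either direction, 5.94% lower and 4.66% higher, so the share of called genes was near that of all genes. The count of 0 higher genes was the same with limma-voom and DESeq2, and 0 genes were higher at an unadjusted p under 0.05 with each of the 3 tools. Nlrp3 and Naip2 were lower at an unadjusted p under 0.05. The median log2 fold change over the 10 genes was -0.045, and 0.00082 over all genes tested, while the median size of the change, without regard to its sign, was 0.107 and 0.159. The groups did not overlap in 2 of the 10 genes, Nlrp3 and Casp1, and in 27.4% of all genes tested.

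**Figure D1:**
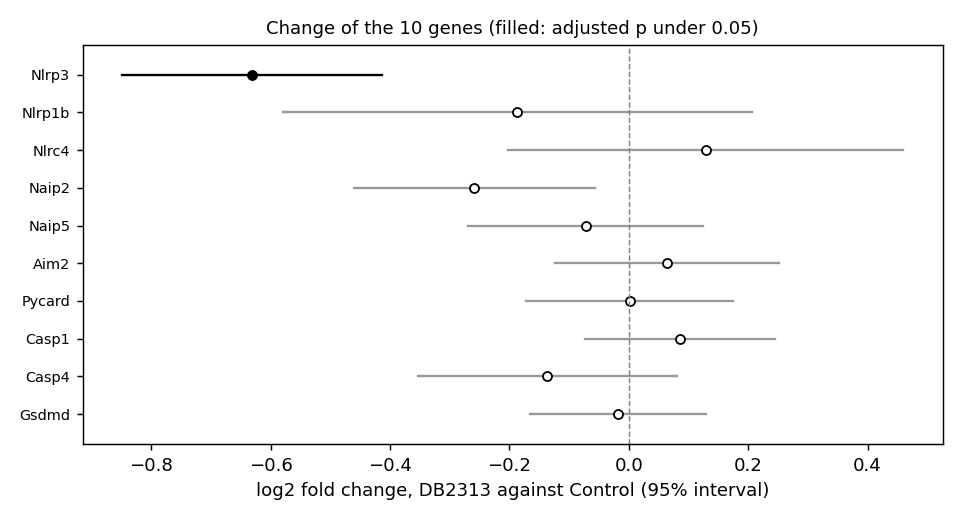
Log2 fold change of DB2313 against Control (horizontal axis) for the 10 genes (vertical axis), with 95% intervals from edgeR. Filled points passed an adjusted p of 0.05. Nlrp3 at -0.63 has an interval wholly below 0 and is the only filled point.

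Nlrp3 encodes the sensor that responds to potassium efflux, crystals and other signs of cell damage. The gene (ENSMUSG00000032691) lies on the plus strand at chr11:59541568-59566956 in GRCm38. Its level in Control was 67.4, 59.1 and 61.5 CPM in replicates 1 to 3, from 1096, 942 and 980 counts. In DB2313 it was 35.2, 39.8 and 46.4 CPM, from 579, 794 and 772 counts. Every DB2313 library lay below every Control library. The mean level was 62.6 ± 4.27 CPM (SD, n = 3) in Control and 40.5 ± 5.64 CPM (SD, n = 3) in DB2313, a ratio of 0.646. Nlrp3 fell by 0.63 on the log2 scale, with an SE of 0.10, a 95% interval of -0.85 to -0.41 and an adjusted p of 0.000961 in edgeR's quasi-likelihood test. It remained past the threshold without any one of the 6 libraries, with a log2 fold change between -0.74 (without DB2313 replicate 3) and -0.54 (without DB2313 replicate 1) and an adjusted p of at most 0.0124. In a test against a change of 1.5-fold (glmTreat of edgeR) its adjusted p was 1. In bulk RNA a lower level from fewer cells of one type cannot be told apart from less RNA per cell.

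**Figure D2:**
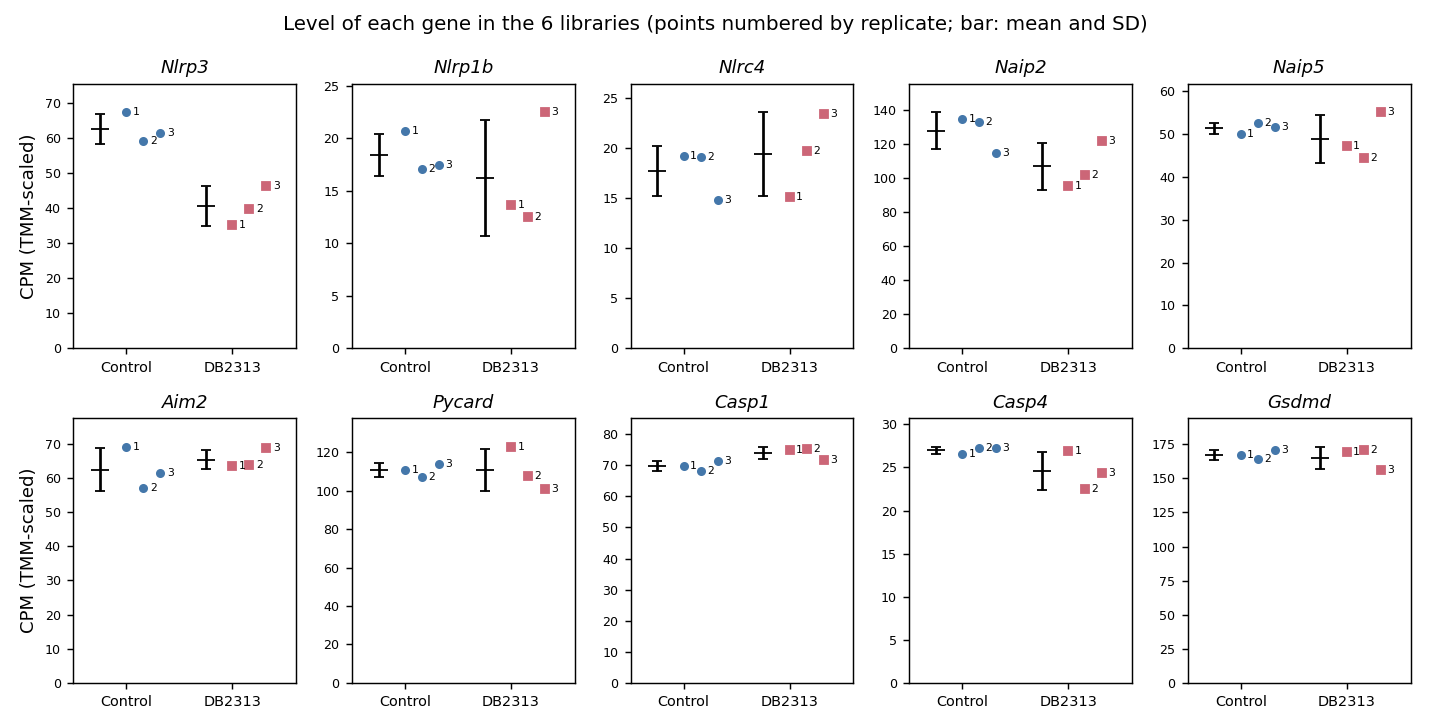
Level of each of the 10 genes in CPM (vertical axes, from 0) in the 3 Control and 3 DB2313 libraries, with points numbered by replicate and bars for the mean and SD. Nlrp3 is at 59.1 to 67.4 CPM in Control and 35.2 to 46.4 CPM in DB2313. Casp1 also separates the groups, by a smaller step from 71.3 to 71.7 CPM.

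The sum of the macrophage markers had the order of Nlrp3 across the DB2313 libraries, but not across the Control libraries. The 8 markers summed to 1490 to 1610 CPM in Control and to 1200, 1280 and 1470 CPM in DB2313 replicates 1 to 3, the same order as the Nlrp3 level in those libraries. Of these markers 4 were lower, among them Csf1r, Mrc1 and C1qb, Fcgr1 was higher, and 3 did not pass the test. The dendritic cell markers summed to 9720 to 9980 CPM in Control and to 9700, 8950 and 8200 CPM in DB2313 replicates 1 to 3, with Itgax lower, and the neutrophil markers to 4520, 3790 and 3530 CPM, with Ly6g, Retnlg and Elane higher and Csf3r lower. The mast cell and basophil sum was 2950, 2820 and 2450 CPM and the T cell sum 220, 183 and 151 CPM in the same libraries. These 4 sums ran opposite to Nlrp3 across the DB2313 libraries, though not every marker did. Most of the dendritic cell sum was Cd74, at 6610, 6000 and 5390 CPM in these libraries, and H2-Ab1, Ccr7 and Flt3 had the same order. Zbtb46 (66.8, 74.9 and 81.5 CPM) and Ciita (111, 148 and 166 CPM) instead had the order of Nlrp3. The part of these cell types in the Nlrp3 result was not tested. Among the genes whose log2 CPM followed Nlrp3 most closely over the 6 libraries were Mpp4 (Pearson r = 0.9965) and Ticrr (r = 0.9957), and 207 genes had an r of at least 0.95. These correlations are a description, since the 6 points share the difference between the groups. Mpp4 and Ticrr had log2 fold changes of -2.18 and -0.37.

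The promoter of Nlrp3 is shown because Nlrp3 alone of the 10 genes was called lower and PU.1 binds purine-rich DNA with a GGAA core. RefSeq (GRCm38.p6) gave 2 start sites for Nlrp3. The 250 bases before the one at the start of the gene, chr11:59541319-59541568 on the plus strand, are printed 5′ to 3′ with GGAA, on either strand, in capitals.
Nlrp3 promoter: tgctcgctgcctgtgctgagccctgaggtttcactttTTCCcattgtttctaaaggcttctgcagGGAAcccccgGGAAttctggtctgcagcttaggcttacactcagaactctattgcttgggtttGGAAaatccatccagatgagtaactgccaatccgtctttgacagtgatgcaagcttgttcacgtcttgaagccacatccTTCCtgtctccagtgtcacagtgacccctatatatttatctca
This window held 5 copies of GGAA, at 213, 185, 175, 122 and 43 bases before the start, and the window of the other start site held 7. Such a short word is common, and 93.4% of the 32851 RefSeq promoters of the same length held it. A longer PU.1-type word, GAGGAAGT, which contains GGAA, was in neither Nlrp3 window on either strand. It was found in 2.44% of all promoters and in 3 of the 12 windows of the 9 genes with a RefSeq promoter, those of Aim2, Pycard and Nlrp1b, whose levels did not pass the test. The 30 bases around these matches, chosen after the values were seen, are shown for comparison, with the word or its reverse complement in capitals.
Aim2, chr1:173420480-173420509, plus strand: aaaccttattgGAGGAAGTgggtcactgag
Pycard, chr7:127993893-127993922, minus strand: gtccccaccccACTTCCTCcaccaacccac
Nlrp1b, chr11:71230811-71230840, minus strand: cccagtgtttaGAGGAAGTgcatctgtgca
The matches lay 113, 44 and 96 bases before the RefSeq start of Aim2, Pycard and Nlrp1b. The interferon-type word GAAANNGAA, found in 7.13% of all promoters, was in none of the 12 windows. A match is a description of the letters and shows no binding.

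Nlrp1b encodes a sensor that is activated when its own N-terminal part is cleaved, as by anthrax lethal factor. The gene (ENSMUSG00000070390) lies on the minus strand at chr11:71153102-71230733. Its level was 20.7, 17.1 and 17.4 CPM in Control and 13.6, 12.5 and 22.5 CPM in DB2313. DB2313 replicates 1 and 2 were below every Control library and replicate 3 was above all of them. The mean was 18.4 ± 2.03 CPM (SD, n = 3) in Control and 16.2 ± 5.51 CPM (SD, n = 3) in DB2313, and the log2 fold change of -0.19 ± 0.18 (SE) had a 95% interval of -0.58 to 0.21 and an adjusted p of 0.605 in edgeR. Without DB2313 replicate 3 the log2 fold change was -0.50 with an adjusted p of 0.0173, in a fit that called 16.6% of all genes.

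Nlrc4 encodes the platform that assembles once a Naip protein has bound its bacterial ligand. The gene (ENSMUSG00000039193) lies on the minus strand at chr17:74425438-74459142. Its level was 19.2, 19.1 and 14.8 CPM in Control and 15.1, 19.7 and 23.4 CPM in DB2313. The groups overlapped. The log2 fold change was 0.13 ± 0.16 (SE), with a 95% interval of -0.20 to 0.46 (edgeR, adjusted p = 0.684), and it was -0.02 without DB2313 replicate 3. Its transcript shares stretches of up to 181 bp at 95% identity or more with 93 other genes, and reads from these could have been split.

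Naip2 and Naip5 encode the receptors that feed Nlrc4, Naip2 for the rod protein of bacterial secretion systems and Naip5 for flagellin. They are neighbours on the minus strand of chromosome 13, Naip2 (ENSMUSG00000078945) at chr13:100144063-100202092 and Naip5 (ENSMUSG00000071203) at chr13:100211739-100246323. Naip2 was at 135, 133 and 115 CPM in Control and at 95.5, 102 and 122 CPM in DB2313. DB2313 replicates 1 and 2 lay below every Control library, and replicate 3 lay above Control replicate 3. The mean was 128 ± 10.9 CPM (SD, n = 3) in Control and 107 ± 13.9 CPM (SD, n = 3) in DB2313. The log2 fold change of Naip2 was -0.26 ± 0.095 (SE), with a 95% interval of -0.46 to -0.056. Its p in edgeR was 0.0158 before adjustment and 0.103 after it. This call depended on the fit. The adjusted p of Naip2 was 0.00245 without DB2313 replicate 3 (log2 fold change -0.37), 0.0394 with an offset for gene length and 0.0484 with no filter on low counts.

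Naip5 was at 50, 52.6 and 51.6 CPM in Control and at 47.2, 44.4 and 55.2 CPM in DB2313. The DB2313 libraries lay on both sides of the Control libraries. The log2 fold change was -0.07 ± 0.093 (SE), with a 95% interval of -0.27 to 0.13 and an adjusted p of 0.708 in edgeR. The ratio of Naip5 to Naip2 counts was 0.371, 0.396 and 0.449 in Control and 0.494, 0.434 and 0.452 in DB2313, and the exact permutation test of this ratio gave a two-sided p of 0.2, where 3 against 3 libraries cannot go below 0.1. Naip5 shares a stretch of 4398 of its 5204 bp with Naip6 at 96.91% identity, and Naip2 shares 662 bp with Naip1 at 95.92%, so the levels of this family are uncertain wherever reads could match more than 1 copy.

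Aim2 encodes the sensor of double-stranded DNA in the cytosol. The gene (ENSMUSG00000037860) lies on the plus strand at chr1:173350879-173466040, and the RefSeq start used above is inside this interval. Its level was 69.2, 57 and 61.5 CPM in Control and 63.6, 63.8 and 68.7 CPM in DB2313. The DB2313 libraries lay within the range of the Control libraries. The log2 fold change was 0.06 ± 0.09 (SE), with a 95% interval of -0.12 to 0.25 and an adjusted p of 0.731 in edgeR.

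Pycard encodes ASC, the adaptor through which Nlrp3 and Aim2 reach caspase-1. The gene (ENSMUSG00000030793) lies on the minus strand at chr7:127989708-127993867. It was at 111, 107 and 114 CPM in Control and at 123, 108 and 101 CPM in DB2313. An overlapping gene on the other strand, Gm45205, had 0 counts in every library. The DB2313 values of Pycard spread over a wider range that covered the Control libraries. The mean was 111 ± 3.57 CPM (SD, n = 3) in Control and 111 ± 10.9 CPM (SD, n = 3) in DB2313, with a 95% interval of the log2 fold change from -0.17 to 0.18 and an adjusted p of 0.993 in edgeR. Pycard had a log2 fold change of 0.00184, which fell on the other side of 0 in several fits, as with limma-voom (-0.00288), with an offset for gene length (-0.0198) and without Control replicate 2 (-0.0153) or DB2313 replicate 1 (-0.0767). The ratio of Nlrp3 to Pycard counts, chosen after the values were seen, sets the sensor against its adaptor within each library. It was 0.609, 0.552 and 0.539 in Control and 0.286, 0.369 and 0.457 in DB2313. All DB2313 ratios lay below all Control ratios. The ratio was picked knowing that Nlrp3 separated the groups and Pycard did not. This order therefore restates the Nlrp3 values and is not separate evidence.

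Casp1 and Casp4 are neighbours on the plus strand of chromosome 9. Casp1 (ENSMUSG00000025888, chr9:5298517-5307265) encodes the protease that matures interleukin-1β and interleukin-18, and Casp4 (ENSMUSG00000033538, chr9:5308828-5336783) encodes the mouse protein also called caspase-11, which binds lipopolysaccharide in the cytosol. Casp1 was at 69.8, 68.1 and 71.3 CPM in Control and at 74.9, 75.4 and 71.7 CPM in DB2313. Every DB2313 library was above every Control library, but by little. The mean was 69.7 ± 1.63 CPM (SD, n = 3) in Control and 74 ± 1.98 CPM (SD, n = 3) in DB2313, a log2 fold change of 0.09 ± 0.07 (SE) with a 95% interval of -0.07 to 0.25 and an adjusted p of 0.548 in edgeR. With an offset for gene length the log2 fold change of Casp1 was 0.00566. Casp4 was at 26.6, 27.2 and 27.3 CPM in Control and at 26.9, 22.5 and 24.4 CPM in DB2313. DB2313 replicates 2 and 3 were below the Control libraries and replicate 1 was among them. Casp4 had a log2 fold change of -0.14 ± 0.10 (SE), with a 95% interval of -0.35 to 0.08 and an adjusted p of 0.47 in edgeR. The ratio of Casp4 to Casp1 counts was 0.38, 0.4 and 0.383 in Control and 0.359, 0.299 and 0.34 in DB2313. This ratio was lower in every DB2313 library than in any Control library, with a two-sided p of 0.1 in the exact permutation test, the smallest it allows here.

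Gsdmd encodes gasdermin D, the pore protein that caspase-1 and caspase-11 cleave. The gene (ENSMUSG00000022575) lies on the plus strand at chr15:75862327-75867408. Its level was 167, 164 and 171 CPM in Control and 169, 171 and 156 CPM in DB2313. The groups overlapped, with DB2313 replicate 3 the lowest library. The log2 fold change was -0.02 ± 0.07 (SE), with a 95% interval of -0.17 to 0.13 (edgeR, adjusted p = 0.92), and it was 0.0053 with scaling by library totals, 0.00056 without Control replicate 3, 0.02 without DB2313 replicate 3 and -0.07 with an offset for gene length.

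**Figure D3:**
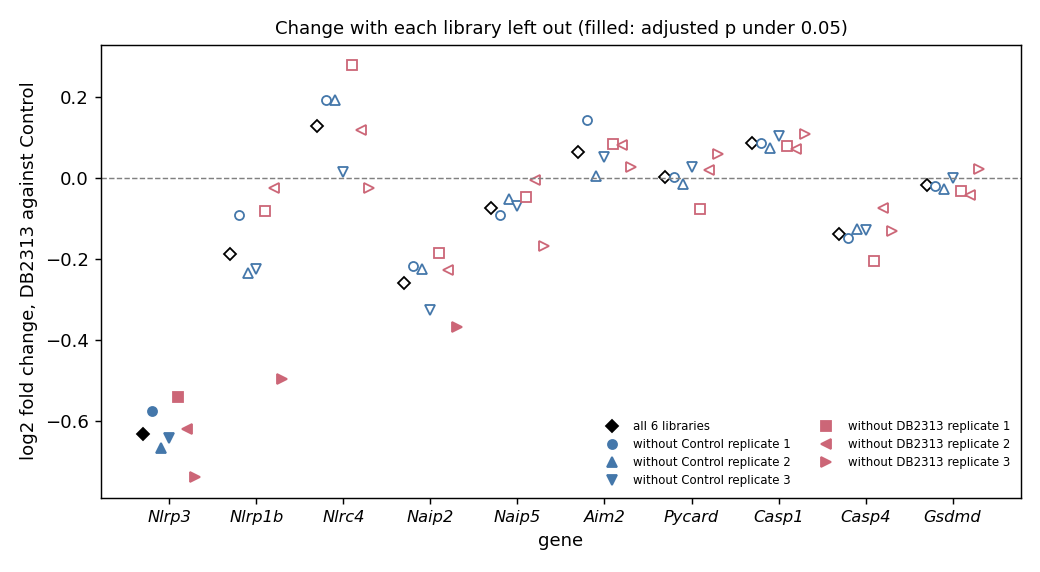
Log2 fold change of DB2313 against Control (vertical axis) for the 10 genes (horizontal axis) with all 6 libraries and with each library left out. Filled points passed an adjusted p of 0.05 in edgeR. Nlrp3 is filled in every fit, from -0.74 to -0.54, and Nlrp1b and Naip2 only without DB2313 replicate 3.

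Levels of different genes were compared per kilobase of gene length. In Control, Gsdmd was the highest at 70.4 ± 1.5 CPM per kilobase (SD, n = 3), followed by Casp1 at 46.6 ± 1.09 and Pycard at 29.1 ± 0.94. The sensors were lower. Naip2 was at 26.3 ± 2.24, Aim2 at 17.9 ± 1.76, Nlrp3 at 15.4 ± 1.05 and Naip5 at 9.88 ± 0.244 CPM per kilobase. Casp4 stood at 7.28 ± 0.108, below Casp1, and Nlrc4 at 3.75 ± 0.536 and Nlrp1b at 2.92 ± 0.322 closed the order. The neighbours Aim2 and Nlrp3, and Nlrc4 and Nlrp1b, overlapped between libraries. In DB2313 the order of the means was the same, but Nlrp3 at 9.97 ± 1.39 CPM per kilobase no longer overlapped Aim2 at 18.7 ± 0.821 and now overlapped Naip5 at 9.4 ± 1.08. Nlrc4 and Nlrp1b overlapped here too. The length used for Pycard, 3800 bp, covers all annotated exons of the gene, as does that of Casp4, 3710 bp. A value per kilobase, and with it the order of the genes, therefore depends on which transcripts are made.

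**Figure D4:**
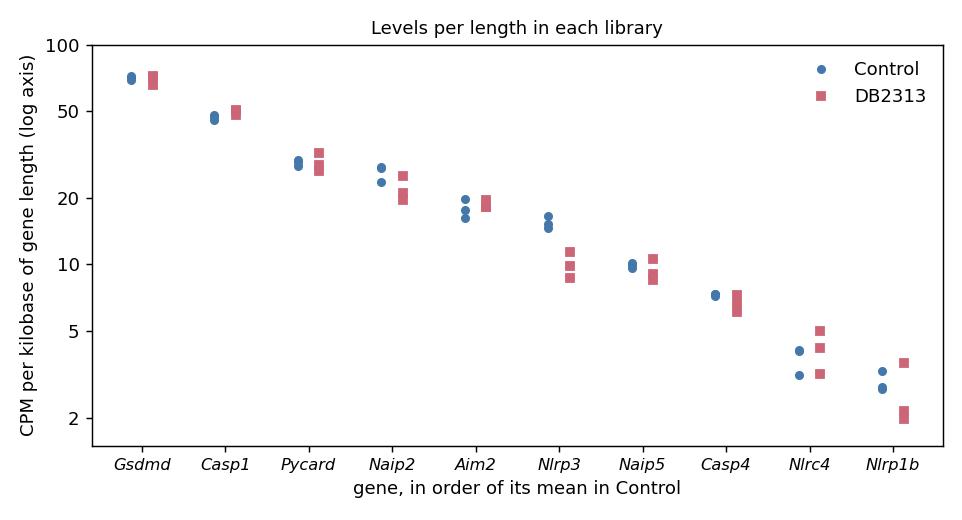
CPM per kilobase of gene length (vertical log axis) of the 10 genes, ordered by their Control mean, in the 3 Control and 3 DB2313 libraries. Gsdmd is the highest, at means of 70.4 and 69.6, and Nlrp1b the lowest, at 2.92 and 2.57. Nlrp3 moves from beside Aim2 to beside Naip5.

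A wider list of 63 genes of the same route, with further sensors, caspases, pore proteins, regulators and cytokines, was examined next. Its genes were picked with earlier results of these data known, so its share of calls is a description. Of these, 61 were in the table and 54 were tested. In this list 7 genes were higher and 11 lower in DB2313, which is 33.3% of those tested beside 10.6% of all genes, and the median log2 fold change was -0.039. Leaving out a library moved these counts. They were 4 higher and 6 lower without Control replicate 1, 3 and 6 without Control replicate 2, 2 and 7 without Control replicate 3, and 3 and 5 without DB2313 replicate 2. They were 6 higher and 13 lower without DB2313 replicate 1, and 6 and 15 without DB2313 replicate 3. The share of all genes called moved too. It was 5.84, 5.48 and 5.89% without Control replicates 1, 2 and 3. Without DB2313 replicates 1, 2 and 3 it was 11.8, 5.07 and 16.6%.

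Of 5 cytokine genes tested, 1 was higher and 2 were lower, the 2 lower ones being Il1b and Il1a. Il1b, which encodes the interleukin-1β precursor, was at 34.9, 29.9 and 42.7 CPM in Control and at 20.3, 25.2 and 21.3 CPM in DB2313, with no overlap. It fell by 0.68 ± 0.13 (SE) on the log2 scale (adjusted p = 0.0031 in edgeR) and remained past the threshold without any one library. Il1a fell by 0.84 ± 0.22 (SE), from 7.89 ± 1.01 to 4.41 ± 1.22 CPM (SD, n = 3; adjusted p = 0.0223), but did not pass without Control replicate 1, Control replicate 3 or DB2313 replicate 2 (adjusted p up to 0.1). Il18 was near 4 CPM in both groups, at 3.75 ± 1.02 and 3.85 ± 0.253 CPM (SD, n = 3), with a 95% interval of the log2 fold change from -0.50 to 0.58. Il18bp, which encodes the secreted inhibitor of interleukin-18, rose from 39.4 ± 2.48 to 56.6 ± 0.713 CPM (SD, n = 3), a log2 fold change of 0.52 ± 0.084 (SE; adjusted p = 0.000896). Il18bp shares 80 bp of exon with Numa1 on the other strand, and Numa1 had up to 5715 counts in a library. Whether counting used strand is not given in the sources used here. Txnip, Gbp2, Il1a and Il1b, named here, each overlap an opposite-strand gene with at most 16 counts in a library.

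Of the 11 other sensors tested, 1 was higher and 2 were lower. Naip1, a further receptor upstream of Nlrc4, was at 6.52, 4.14 and 4.96 CPM in Control and at 1.76, 2.11 and 2.82 CPM in DB2313, a log2 fold change of -1.22 ± 0.27 (SE; adjusted p = 0.00884, and 0.0702 without Control replicate 1). Its counts were low, at 106, 66 and 79 in Control and 29, 42 and 47 in DB2313. Stretches of 1856 bp of Naip5 and 1168 bp of Naip6 match Naip1 at 95.47% and 95.2% identity. The level of Naip1 is uncertain wherever reads could match these copies. Mefv, which encodes the sensor pyrin, fell by 0.56 ± 0.15 (SE; adjusted p = 0.0244) but did not pass without any one of the Control libraries or DB2313 replicate 2 (adjusted p up to 0.131). Ifi204, an interferon-induced DNA sensor, rose by 0.32 ± 0.089 (SE; adjusted p = 0.0327) and did not pass without Control replicate 2 or 3 or DB2313 replicate 2 or 3 (adjusted p up to 0.142). Naip6, the copy closest to Naip5, had a log2 fold change of -0.23 ± 0.13 (SE; adjusted p = 0.32), and of -0.39 without DB2313 replicate 3 (adjusted p = 0.0198). Nlrp1a, the neighbour of Nlrp1b in its family, had a log2 fold change of 0.04 with a 95% interval of -0.33 to 0.42, and its direction turned without Control replicate 3 or DB2313 replicate 3.

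Of 5 other caspases tested, 2 were higher and none lower. Casp6, an executioner caspase, was at 26, 27.7 and 26.7 CPM in Control and at 44.4, 49.4 and 43.9 CPM in DB2313. It rose by 0.78 ± 0.091 (SE) on the log2 scale, with an adjusted p of 6.92e-05 in edgeR, and remained past the threshold without any one library. Casp8 had a log2 fold change of -0.22 ± 0.084 (SE; adjusted p = 0.113), and its adjusted p was 0.0197 without DB2313 replicate 3 and 0.0292 with an offset for gene length.

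Of 3 pore genes tested, Ninj1, which encodes the protein that ruptures the plasma membrane late in lytic death, was lower. It was at 217, 210 and 228 CPM in Control and at 173, 154 and 158 CPM in DB2313, a log2 fold change of -0.44 ± 0.072 (SE; adjusted p = 0.00112 in edgeR) that passed without any one library. Gsdme, a gasdermin cleaved by caspase-3, had a log2 fold change of 0.11 with a 95% interval of -0.29 to 0.52, and its direction turned without DB2313 replicate 1.

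Of 30 regulators tested, 3 were higher and 6 lower. Kcnk13, a potassium channel, fell by 0.53 ± 0.10 (SE; adjusted p = 0.00283), and Gbp5, an interferon-induced guanylate-binding protein, fell by 0.39 ± 0.078 (SE; adjusted p = 0.00408). Both passed without any one library. Its relative Gbp2 fell by 0.32 ± 0.07 (SE; adjusted p = 0.00781, and up to 0.0732 without Control replicate 2 or DB2313 replicate 2). Serpinb1a, an inhibitor of serine proteases, fell by 0.41 ± 0.091 (SE; adjusted p = 0.00832, and up to 0.0687 without Control replicate 2 or 3 or DB2313 replicate 2).

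Cflar, an inhibitor of caspase-8, fell by 0.35 ± 0.094 (SE; adjusted p = 0.0264, and up to 0.155 without Control replicate 1 or 2 or DB2313 replicate 2). Irf2, a transcription factor known to drive Gsdmd, fell by 0.24 ± 0.075 (SE; adjusted p = 0.0494). It passed in 1 of the 6 fits with a library left out, the one without DB2313 replicate 1 (adjusted p up to 0.223 in the others). Over all 19 alternative fits Irf2 passed in 7, and its adjusted p in edgeR was 0.0543 with size factors of DESeq2. Gsdmd itself did not pass the test, as described above. Txnip, a thioredoxin-binding protein that has been reported to bind Nlrp3, rose by 0.31 ± 0.073 (SE; adjusted p = 0.0119, and up to 0.086 without Control replicate 2 or 3 or DB2313 replicate 2). Ripk3, a kinase of necroptosis, rose by 0.33 ± 0.082 (SE; adjusted p = 0.0168, and up to 0.0814 without Control replicate 1 or 3). Gm12250, also called Irgb10, an interferon-induced GTPase, rose by 0.37 ± 0.11 (SE; adjusted p = 0.0375) and passed in 1 of the 6 fits with a library left out, the one without DB2313 replicate 1 (adjusted p up to 0.169 in the others).

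Nek7, P2rx7 and Irf8 did not pass the test. Nek7, the kinase that binds Nlrp3, was at 116 ± 3.79 and 110 ± 5.7 CPM (SD, n = 3), with a 95% interval of the log2 fold change from -0.23 to 0.08. P2rx7, the ATP-gated channel upstream of Nlrp3, was at 74.7 ± 1.66 and 70.5 ± 6.74 CPM (SD, n = 3), with an interval of -0.26 to 0.10. Irf8, a transcription factor of dendritic cells that partners PU.1, was at 273 ± 10.7 and 244 ± 21.8 CPM (SD, n = 3), with an adjusted p of 0.207 in edgeR, and of 0.0409 without DB2313 replicate 1.

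**Figure D5:**
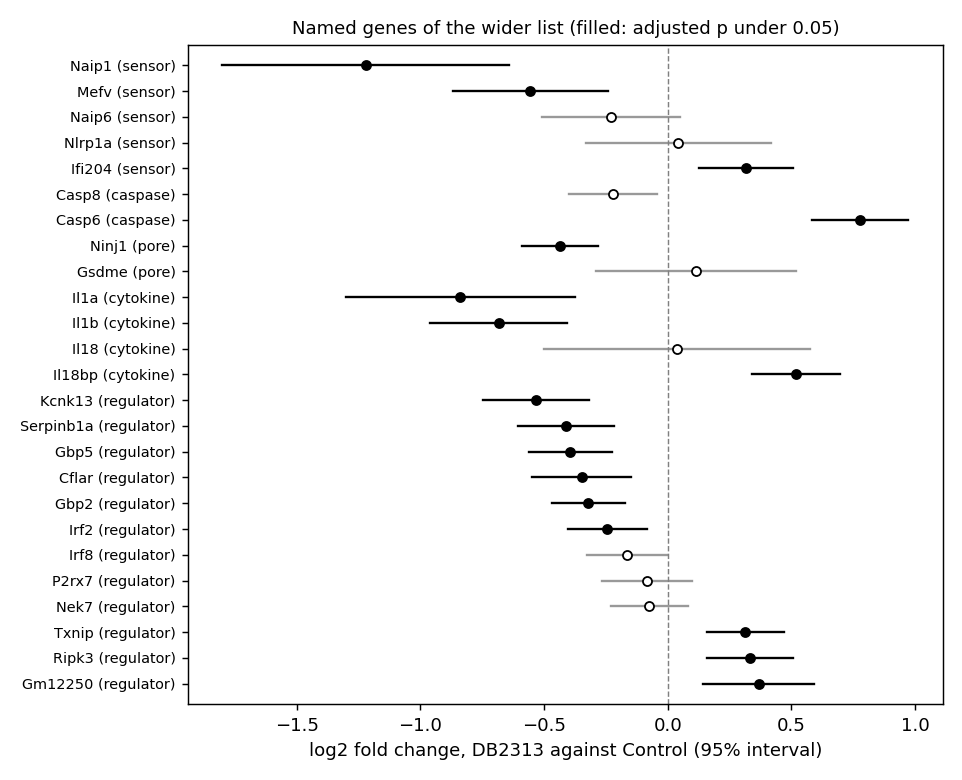
Log2 fold change of DB2313 against Control (horizontal axis, with 95% intervals) for the named genes of the wider list (vertical axis). Filled points passed an adjusted p of 0.05 in edgeR. Naip1 at -1.22 and Casp6 at 0.78 mark the ends of the range.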

How the data were processed

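The authors deposited 1 table of raw counts, whole and not normalised, with a column per library and gene length in bp. The submitters' processing notes list CASAVA 1.8, HISAT2 2.0.5 and featureCounts 1.5.0-p3, whereas the methods of the study name LifeScope for mapping and counting. The genome build, the use of strand and the treatment of reads with several matches are not given in the sources used here. Of 54495 shared identifiers, 98.33% had the coordinates of GENCODE M21 (GRCm38). The labels call the cells dendritic cells, and the methods describe macrophages. Columns named for dendritic cells or for Spi1 were read as Control or DB2313 by name and number, and every direction rests on that reading. Nothing says that libraries came from separate cultures, so p-values measure the spread between these libraries, which may be technical.

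Counts were tested in R 4.3.3 with edgeR 4.0.16 (TMM scaling, filterByExpr, glmQLFit and glmQLFTest, group as the only term) with Benjamini-Hochberg adjustment over 14174 genes and a threshold of 0.05. CPM use TMM-scaled totals. As alternatives, the fit was repeated with size factors of DESeq2 or library totals for scaling, without a filter or with a minimum mean of 10 counts, on protein-coding genes alone, and with robust edgeR, limma-voom (limma 3.58.1), DESeq2 1.42.0, glmTreat against 1.5-fold, a prior count of 2, an offset for gene length, the replicate number as a block, both together, and each library left out. Intervals cover the spread between libraries. On simulated data 93.3% of 195 genes changed 2-fold were called, and 8 of 14220 genes falsely so. For changes of 1.5-fold, 66.3% of 196 genes were called, and 10 of 14149 genes falsely so. The simulated counts had the same dispersion for all genes and both groups, without the wider spread among the DB2313 libraries. These rates may therefore differ from those in the real data. Near-identical copies were sought with blastn 2.17.0 (at least 95% identity over 100 bp). Promoters are from RefSeq. The members, the lists and the rule for names (the 10 genes, the genes of the wider list that passed the test and a set of 15 always named) were chosen with earlier results of these data known. The values of 3 genes that these rules or lists cover are not reported here.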

Additional observations from a re-analysis of the deposited data

How the results depend on the processing

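Nlrp3 passed the threshold in 18 of 19 alternatives, all but glmTreat (log2 fold change -0.631, adjusted p of 1), which left 0 genes of the 10 and 0 higher and 0 lower genes of the wider list. The glmTreat fit called 0.607% of all genes tested. With no filter and with the gene length offset 2 of the 10 genes were called lower, Nlrp3 (-0.622 and -0.648) and Naip2 (-0.25 and -0.266). These fits called 6.29% and 12.7% of all genes tested. Leaving out each library gave 1 to 3 genes of the 10 lower, beside 5.07 to 16.6% of all genes called in either direction. In the wider list it gave 2 to 6 higher and 5 to 15 lower genes. It gave log2 fold changes from -0.367 to -0.186 for Naip2, -0.496 to -0.0242 for Nlrp1b, -0.0249 to 0.279 for Nlrc4, -0.0767 to 0.0609 for Pycard, -0.042 to 0.0236 for Gsdmd, -0.147 to 0.24 for Il18, -0.204 to 0.164 for Nlrp1a and -0.19 to 0.286 for Gsdme. The 3 genes called without DB2313 replicate 3 were Nlrp3, Nlrp1b and Naip2. Pycard changed direction with limma-voom (-0.00288) and the gene length offset (-0.0198), Gsdmd with library totals (0.0053), and Il18 with the gene length offset (-0.0627). The cause was not tested.

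Whether libraries were paired by replicate number is not given in the sources used here. Correlations of same-numbered deviations were -0.00047, -0.0235 and -0.0997, which cannot settle it with 3 libraries a group. With the replicate block, 502 genes of the table were higher and 629 lower, Nlrp3 was at -0.636 and Pycard at -0.00169, and Ifi204 and Irf2 were among the genes of the wider list that were no longer called. With the block and the gene length offset together, 9.59% of all genes tested were called and 3 genes of the wider list were higher. In that fit Pycard was at -0.0239 and Il18 at -0.0393. No sample correlated best with its own number. With 3 libraries a group, changes of 1.5-fold were recovered less often than changes of 2-fold in simulated counts.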
